A study of Mus musculus with 12 samples.

Results

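Cytosolic ribosomal proteins are the protein components of the ribosomes that translate messenger RNA in the cytoplasm. The genes described here were chosen by name: protein-coding genes whose symbol follows the Rpl or Rps pattern, together with Rpsa, Rplp0, Rplp1, Rplp2 and Fau, without the Rps6k kinases, and with at least 100 counts summed over the 12 libraries. That rule gave 82 genes of the 53715 in the count table, 33 of the small subunit and 49 of the large subunit, spread over 20 chromosomes. A further 3 genes had the right symbol and too few counts: Rpl39l held 79 counts in all 12 libraries together, Rpl3l 42 and Rpl10l 3. RNA from mouse spleen was sequenced in 3 groups of 4 libraries, all from mice described as BXSB.Cg-Cd8atm1Mak Il15tm1Imx Yaa, or Yaa DKO, a lupus-prone background, so that the controls carry the same Yaa background and the same alleles of Cd8a and Il15 as the treated mice. One group was untreated and 6 weeks old, another untreated and 10 weeks old, and the third 10 weeks old given 2-deoxyglucose (2DG), a glucose analogue that interferes with glycolysis, freely in drinking water that held 6 g/L. Replicates are numbered 1 to 4 at 6 weeks, 5 to 8 in untreated spleens at 10 weeks and 9 to 12 with 2DG. The labels do not say that each library came from a mouse of its own, so the p-values measure only how far these samples spread, and that spread may be technical.

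A ribosome is built from ribosomal RNA and one copy of nearly every ribosomal protein, except for the acidic stalk proteins, which are present in several copies. Ribosomal protein messages carry a terminal oligopyrimidine (TOP) tract, an unbroken run of C and T (U in RNA) at their start, through which mTORC1 signalling and the RNA-binding protein Larp1 control their translation and stability. They are abundant in growing lymphocytes and in cells that secrete much protein, and the mammalian genome holds many intronless copies of them, most annotated as processed pseudogenes. RNA-seq of the spleen, a mixture of lymphocytes, plasma cells, myeloid cells and red cell precursors, measures message level only, not translation. In such bulk samples fewer cells of a type and less RNA per cell cannot be told apart.

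The start-site sequence was looked up for each gene in RefSeq (GRCm38.p6), which had an entry for 62 of the 82. A window from 20 bases before to 30 bases after each annotated start was searched on the gene's own strand for a run of C or T of at least 7 bases. Such a run was present in 42 of the 62 (67.7%), against 31.9% of 27025 genes searched in the same way, and the median longest run was 9 bases against 5. A gene with several annotated starts counted once if any of them matched. The windows below are from genes that the later comparisons describe, in order of the length of their run, with the longest run of C or T in capitals. Rpl10a has several annotated starts, and the one with the longest run is shown. They lie at chr7:109519175-109519224 on the + strand (Rpl27a), chr19:6057927-6057976 on the + strand (Fau), chr9:64173367-64173416 on the + strand (Rpl4), chr7:141447631-141447680 on the + strand (Rplp2), chr17:28328545-28328594 on the + strand (Rpl10a), chr9:120127746-120127795 on the + strand (Rpsa), chr12:69184038-69184087 on the - strand (Rpl36al) and chrX:74270796-74270845 on the + strand (Rpl10).
Rpl27a: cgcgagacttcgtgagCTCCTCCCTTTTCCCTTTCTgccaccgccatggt
Fau: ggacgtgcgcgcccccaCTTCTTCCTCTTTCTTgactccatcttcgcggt
Rpl4: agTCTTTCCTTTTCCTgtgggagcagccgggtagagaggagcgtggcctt
Rplp2: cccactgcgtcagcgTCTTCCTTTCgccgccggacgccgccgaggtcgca
Rpl10a: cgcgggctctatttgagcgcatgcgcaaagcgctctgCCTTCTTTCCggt
Rpsa: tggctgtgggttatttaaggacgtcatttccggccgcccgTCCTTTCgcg
Rpl36al: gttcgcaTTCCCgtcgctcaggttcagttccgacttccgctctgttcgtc
Rpl10: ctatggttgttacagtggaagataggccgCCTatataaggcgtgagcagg

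The run is 20 bases long in Rpl27a, 16 in Fau and 14 in Rpl4, and 5 in Rpl36al and 3 in Rpl10. In Rpl4 the whole run lies before the annotated start. Where the messages begin in these spleens was not measured. A run found here may therefore lie outside the message, and a tract at another start would be missed. A further 3 motifs were searched on both strands of the 300 bases around each start (250 before and 50 after), none of which contains another. CCGGAAG, the core of the binding site of ETS factors such as GABPA, was found in 25 of 62 (40.3%) and in 9.93% of all genes. TATAAA, the TATA box, was found in 7 (11.3%) and in 15.7% of all genes, and CACGTG, the E-box bound by Myc, in 6 (9.68%) and in 8.09%. A match describes the letters and does not show that a factor binds there.

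The counts of these genes cannot be read without those of their copies. Each gene's transcripts were compared, as stretches of 50 bases, with all other transcripts of the GENCODE M21 annotation, and rows that shared at least 10% of their own stretches with a ribosomal protein gene are called look-alike rows here. There were 612 of them for 80 of the 82 genes, 598 annotated as pseudogenes and 14 as protein coding. The look-alike rows held 1476360 counts over the 12 libraries beside 3744491 in the ribosomal protein rows, or 28.28% of the sum, and for 28 genes they held more than the gene's own row. Of the 612 rows 112 had at least 100 counts. The sources used here do not say how the authors' counting split reads between such rows. The median gene had 79.05% of its stretches to itself, and the lowest value was 18.86% for Rpl36.

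Rps29, a small-subunit protein that binds zinc, had 5045 counts against 83731 in Gm14303, a processed pseudogene on chromosome 2. Rpl23a, which lies near the exit of the protein tunnel, had 128 counts against 5352 in Rpl23a-ps3, and its look-alike rows together held 45.04 times its own counts, the highest ratio of the 82. Between Rpl23a and Rpl23a-ps3, 467 of 468 aligned coding bases match (99.8%). The first 150 coding bases of that pair are printed below to show how little separates a parent gene from its copy: a single base differs, in capitals. The genes are at chr11:78180932-78183584 on the - strand (Rpl23a) and chr14:34170655-34171122 on the + strand (Rpl23a-ps3), in GRCm38, and the sequences are from the GENCODE M21 transcripts.
Rpl23a: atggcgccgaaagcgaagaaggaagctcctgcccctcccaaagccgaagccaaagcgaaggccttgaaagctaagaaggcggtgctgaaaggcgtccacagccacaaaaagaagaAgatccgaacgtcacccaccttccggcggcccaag
Rpl23a-ps3: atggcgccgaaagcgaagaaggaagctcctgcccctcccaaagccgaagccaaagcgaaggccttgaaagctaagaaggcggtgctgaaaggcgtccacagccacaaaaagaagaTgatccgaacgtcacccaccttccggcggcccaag

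Other rows differed in how their counts divided. Rps3a1, a small-subunit protein, had 2320 counts beside 70965 in Rps3a3, and Rpl14 had 37596 beside 93921 in Rpl14-ps1. Rpl23 held 65019 counts and its copy Gm9794 held 90863. Rpl10, which joins the large subunit late in its maturation and turns up again below, had 16459 counts and only 206 in its look-alike rows. Rpl36al had 966 counts and 618 in its look-alike rows, all of them in Rpl36a-ps3. The sum runs over the 12 libraries. A further limit is strand, which the library kit does not mark. Exons of 16 of the 82 genes overlap those of a gene of at least 100 counts on the other strand. Among them are Rpl15 (Nkiras1), Rps2 (Snhg9), Rpl5 (Fam69a), Rpl28 (Ube2s) and Rpl23a (Tlcd1). Reads from the shared stretch of such a pair cannot be told apart, and the length of that stretch was not measured.

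**Figure D1:**
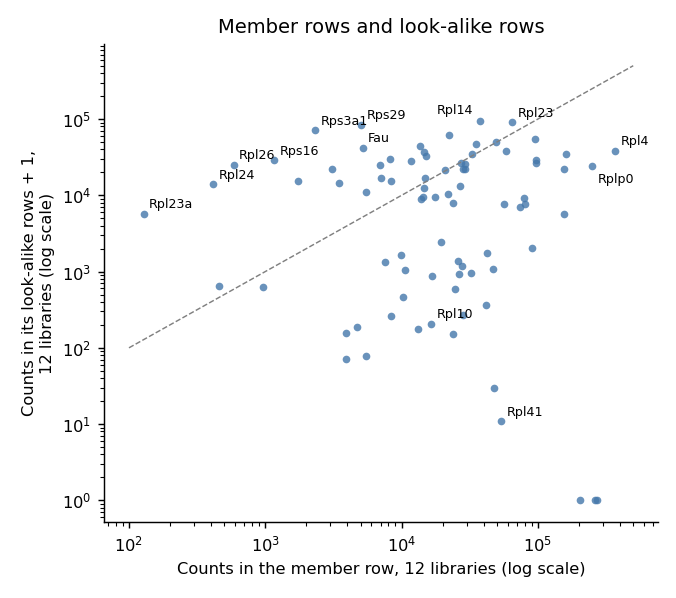
Each point is 1 of the 82 ribosomal protein genes, with the counts of its own row (horizontal axis, log scale) and of its look-alike rows plus 1 (vertical axis, log scale), both summed over the 12 libraries. The 28 points above the dashed line of equality have more counts in look-alike rows than in their own, and points at the bottom, such as those of Rps3 and Rpl8, have 0 look-alike counts.

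Levels between genes are compared as CPM (counts scaled to library size with TMM factors) per kilobase of annotated exon, averaged over the 12 libraries. The length counts every base in any annotated exon of the gene, 499 for Rplp1 and 4483 for Rps3, and can exceed that of the message. The order below therefore depends on the annotation as well as on the counts. Rps3, for example, had 1037 CPM against 584 CPM for Rplp1, but only 231 CPM per kb. Rplp1, a protein of the stalk that recruits the translation factors, was highest at 1170 CPM per kb, followed by Rps15 at 941, Rpl8 at 731, Rpl4 at 699 and Rplp0, the base of the same stalk, at 570. At the low end stood Rpl36al with 2.70, Rpl26 with 1.55, Rpl29 and Rpl24 with 1.54 and 1.53, and Rpl23a with 0.574. The highest value was 2039 times the lowest, although the ribosome holds nearly all of these proteins in equal number. With look-alike rows added to each gene the range was 358-fold. Rpl26 then reached 67.9 CPM per kb, Rpl24 reached 53.1 and Rpl23a reached 26.4, whereas Rpl29 stayed at 3.73 and Rpl36al at 4.45.

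Taken as a whole, the ribosomal protein rows held between 1.25% and 1.56% of all counts in a library. At 6 weeks the 4 shares were 1.39%, 1.39%, 1.35% and 1.40%, a mean of 1.38% ± 0.0225 (SD, n = 4). In untreated spleens at 10 weeks they were 1.501%, 1.39%, 1.25% and 1.42%, a mean of 1.39% ± 0.106 (SD, n = 4). With 2DG they were 1.45%, 1.41%, 1.53% and 1.56%, a mean of 1.49% ± 0.0704 (SD, n = 4). All 4 libraries of the 2DG group were above the 4 libraries of the 6-week group, and the untreated 10-week libraries reached from below all others to among the highest. The 95% Wilson interval of a library's share was at most 0.00582 points to each side, which covers counting error only. Immunoglobulin genes took 3.85%, 8.75% and 2.49% of all counts in the 3 groups, and without them in the total the shares became 1.44% ± 0.0267, 1.52% ± 0.129 and 1.52% ± 0.0748 (SD, n = 4 each). With that denominator the means of the 10-week groups were equal to 3 digits. The balance of subunits hardly moved: small-subunit counts were 0.805 ± 0.0102, 0.803 ± 0.0117 and 0.807 ± 0.0173 of large-subunit counts (SD, n = 4 each).

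In some libraries most of the ribosomal protein genes lay on the same side of their own mean level. Each gene's log2 CPM was set against its own mean over the 12 libraries, and the median of these deviations over the 82 genes was taken per library. The 6-week libraries lay between -0.11 and -0.02, the untreated 10-week libraries between -0.08 and 0.20, and the 2DG libraries between -0.01 and 0.09. Untreated replicate 5 was the highest of all, with 78 of 82 genes above their own mean, and 2DG replicate 12 came next with 70. Replicate 7 of the same untreated group had 13 of 82 above their mean, fewer than any library except 6-week replicates 3 and 4, with 7 and 12. The same counts over all genes were not computed. Whether these shifts are particular to the ribosomal protein genes is therefore not shown. The libraries at the extremes of the untreated 10-week group also differed in other ways. Replicate 5 and replicate 7 were alike in the summed level of 11 plasma cell markers, 6994 and 6798 CPM, but erythroid markers summed to 8530 CPM in replicate 5 and 19520 CPM in replicate 7. Neutrophil markers summed to 467 and 1864 CPM in the same libraries, and monocyte and macrophage markers to 3283 and 4889 CPM. In 2DG replicates 9, 10, 11 and 12, with median deviations of 0.03, -0.01, 0.03 and 0.09, erythroid markers summed to 20510, 25650, 21300 and 12240 CPM. Untreated replicates 6 and 8, with deviations of 0.035 and 0.005, had erythroid sums of 2694 and 8808 CPM. The 6-week replicates 1 to 4, with deviations of -0.02, -0.04, -0.11 and -0.07, had 10060, 9831, 6807 and 7552 CPM. The part of these markers in this spread was not tested.

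The spread within groups was set beside that of all genes above a floor of 10 CPM, with no matching on level and no test of the difference. The median SD of log2 CPM over the 82 genes was 0.06 at 6 weeks, 0.14 in untreated spleens at 10 weeks and 0.07 with 2DG. Over all 10450 genes of at least 10 CPM it was 0.10, 0.16 and 0.09, and over the 74 ribosomal protein genes of at least 10 CPM it was 0.06, 0.13 and 0.07. Without replicate 5 the untreated 10-week value over the 82 genes was 0.08, and the matching value over all genes was not computed.

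**Figure D2:**
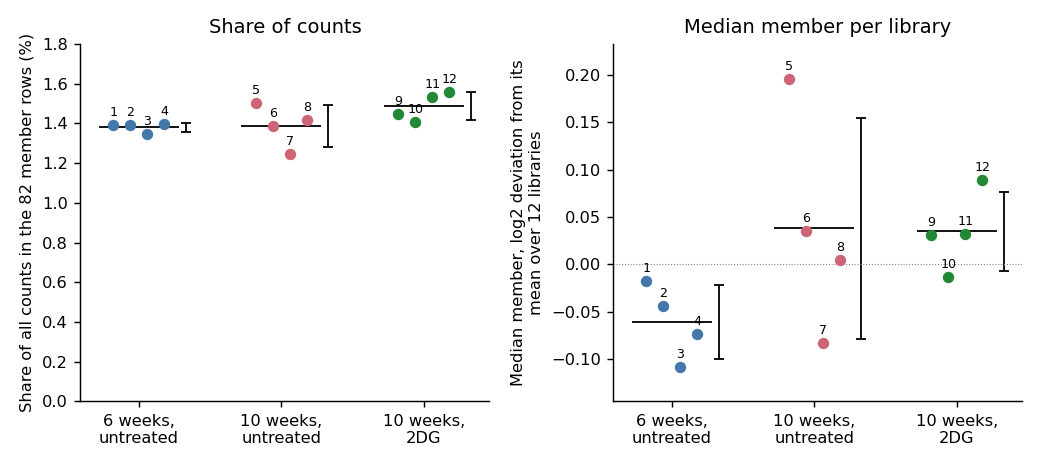
The left panel plots the share of all counts in the 82 ribosomal protein rows (percent) and the right panel the median over the 82 genes of the log2 deviation from each gene's own mean, with a numbered point per library, a line at the group mean and a bar of 1 SD to each side. The 2DG libraries (1.41% to 1.56%) lie above the 6-week libraries (1.35% to 1.40%), and untreated 10-week replicate 5 stands highest in the right panel at 0.20.

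The first comparison asked whether untreated spleens at 10 weeks, the older age, differed from those at 6 weeks in these messages. No ribosomal protein gene passed in edgeR's quasi-likelihood test (adjusted p under 0.05 over all 18542 genes tested, of which 0.00539% passed), and all 82 were among the genes tested. At an unadjusted p under 0.05, 17 were higher and 0 lower, against 9.26% of all genes higher and 7.88% lower. The log2 change was positive for 69 of 82, against 51.5% of all genes, with a median of 0.09 beside 0.01 for all genes and a range from -0.15 to 0.86. For the small subunit 31 of 33 were positive and for the large subunit 38 of 49. DESeq2 called 1 gene higher, Rpl36a, and limma voom with quality weights called 0.

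The stalk proteins were among those with separate groups. Rplp2 stood at 165, 158, 163 and 156 CPM at 6 weeks and at 221, 189, 171 and 180 CPM at 10 weeks, so that all 4 older libraries lay above all 4 younger ones. Its log2 change was 0.24 with SE 0.08 (edgeR adjusted p = 0.153). Rplp1 stood at 533, 531, 542 and 517 CPM and then at 663, 568, 566 and 580 CPM. Again the groups did not overlap (log2 change 0.16, SE 0.07, edgeR adjusted p = 0.226). Rplp0 had values of 904, 878, 873 and 866 CPM at 6 weeks and 1103, 984, 919 and 930 CPM at 10 weeks (log2 change 0.16, SE 0.06, edgeR adjusted p = 0.208). In each of the 3, replicate 5 was the highest library.

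Rpl36a, a large-subunit protein at the site where the spent transfer RNA leaves, came nearest to the threshold. Its values were 23.83, 23.96, 22.43 and 23.99 CPM at 6 weeks and 30.6, 28.6, 26.1 and 26.9 CPM at 10 weeks. The groups did not overlap, and the log2 change was 0.25 with SE 0.07 (edgeR adjusted p = 0.119, range 0.0334 to 0.31 over the alternatives). Its look-alike rows held 25321 counts beside 6968 of its own, and with them added the log2 change was 0.31 (edgeR adjusted p = 0.118). The paralogue Rpl36al, which encodes nearly the same protein, had the largest change of all 82: 4.16, 3.32, 2.15 and 1.84 CPM at 6 weeks against 6.63, 5.02, 6.19 and 3.24 CPM at 10 weeks. Here the groups overlapped, since replicate 8 lay below 6-week replicates 1 and 2, and the log2 change of 0.86 (SE 0.27) did not pass (edgeR adjusted p = 0.157, range 0.0171 to 0.363 over the alternatives). It rests on 30 to 150 counts per library. The lowest adjusted p in the range for Rpl36al came without replicates 6 and 8, and the highest without replicate 4.

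Rpl36, Rpl18, Rpl6, Rpl8 and Fau, whose product is a ubiquitin-like protein fused to a small-subunit protein, completed the 9 genes with no overlap, all higher and 0 lower, against 3.64% and 3.33% of all genes. Rps25, a small-subunit protein used by some viral internal ribosome entry sites, stood at 66.3, 61.9, 57.7 and 61.6 CPM and then at 90.4, 79.5, 65.5 and 65.3 CPM (log2 change 0.28, SE 0.10, edgeR adjusted p = 0.192). The genes Trappc4 and Ccdc84 overlap it on the other strand, and the library kit does not mark strand. Reads from the shared stretches therefore cannot be told apart. Rps27l, the p53-inducible paralogue of Rps27, had 40.2, 34.3, 33.9 and 27.4 CPM at 6 weeks and 50.8, 37.7, 44.6 and 35.7 CPM at 10 weeks (log2 change 0.31, SE 0.13, edgeR adjusted p = 0.231). Both overlapped between the ages.

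The largest negative changes were small. Rpl27a had a log2 change of -0.15 and Rpl15 one of -0.14, with edgeR adjusted p = 0.402 and 0.589. For Rpl15 the lowest library was untreated replicate 6 at 24.8 CPM, beside 37.3, 37.5 and 40.9 CPM in the others of that group and 36.1 to 40.7 CPM at 6 weeks. Rps13, Rpl34 and Rpl13a followed with -0.12, -0.12 and -0.10. For Rps13 and Rpl13a the sign turned to 0.00 and 0.15 when look-alike rows were added.

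Much of the common direction with age came with replicate 5. Without it 53 of 82 log2 changes were positive, the median was 0.05, and 3 genes were higher and 2 lower at an unadjusted p under 0.05, and 9 had no overlap (4.53% of all genes). Without replicate 7, the opposite extreme of the group, 74 were positive, the median was 0.13, 30 were higher at an unadjusted p under 0.05 and 28 had no overlap (5.05% of all genes). The unadjusted count was also 6, 8 and 11 without 6-week replicates 3, 4 and 2, and 15 genes had no overlap without replicate 1 (6.52% of all genes). With library totals in place of TMM factors the median turned to -0.003 with 39 of 82 positive, but all genes then had a median of -0.09, and the difference between the 2 medians was 0.09 under both scalings.

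The second comparison set 2DG against no treatment at 10 weeks. A single gene of the 82 passed, Rpl10, and it was lower with 2DG (background 7.42% of all genes, 2.16% higher and 5.26% lower). Rpl10 stood at 78.5, 67.1, 64.0 and 66.0 CPM in untreated spleens and at 57.0, 60.0, 52.7 and 60.1 CPM with 2DG. All 4 treated libraries lay below all 4 untreated ones, and below or within the range at 6 weeks, where it was 65.2, 61.6, 59.2 and 59.5 CPM. The fall was 0.26 on the log2 scale, SE 0.07, from 68.9 ± 6.52 to 57.5 ± 3.46 CPM (SD, n = 4 each, edgeR adjusted p = 0.0466). The gene lies on chromosome X, at chrX:74270812-74273135 on GRCm38, and its start-site window has the shortest run of C and T of those printed. The windows of Rpl24, Rpl41 and Rpl7l1, not printed, also had a longest run of 3 bases. Those genes were not called here (log2 changes -0.03, -0.11 and -0.03). The windows were set by annotated starts, and where these messages begin, that of Rpl10 included, was not measured.

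The call of Rpl10 was close to the threshold. The adjusted p ran from 0.0167 with DESeq2 to 0.139 without 2DG replicate 11 over the alternatives, and it passed without untreated replicates 6, 7 or 8 but with no other single library left out. Without replicate 5, the highest, the log2 change was -0.19 (edgeR adjusted p = 0.113). Adding its look-alike rows left the call in place (edgeR adjusted p = 0.0466).

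Of the other 81 genes none passed. At an unadjusted p under 0.05, 2 were higher (Rpl10a and Rpsa) and 2 lower (Rpl10 and Rpl36al), against 11.7% and 12.8% of all genes. Just 39 of 82 log2 changes were positive, beside 51.8% of all genes, with a median of -0.005 beside 0.01. Rpl10a was the 1 gene with higher, separate groups (4.48% of all genes) and Rpl10 the 1 with lower ones (7.91%). DESeq2 called Rpl10 and Rpl36al lower, and voom called 0.

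Rpl10a, a protein of the mobile stalk beside the exit site of transfer RNA, stood at 53.3, 54.2, 52.3 and 57.5 CPM in untreated spleens and at 58.4, 60.2, 59.5 and 64.0 CPM with 2DG (log2 change 0.16, SE 0.06, edgeR adjusted p = 0.103). The groups did not overlap, but with the 33133 counts of its look-alike rows added to its own 15000 the log2 change was 0.005 (edgeR adjusted p = 0.972). Rpsa, a small-subunit protein also known as the laminin receptor, stood at 84.1, 82.5, 71.0 and 73.1 CPM and at 87.5, 84.0, 83.8 and 87.7 CPM (log2 change 0.14, SE 0.06, edgeR adjusted p = 0.187). Untreated replicate 5 lay inside the range of the treated group. Rpl15, Rpl28 and Rpl27a also had positive changes among the 5 largest, 0.23, 0.15 and 0.15, with edgeR adjusted p = 0.274, 0.396 and 0.322. With library totals in place of TMM factors Rpl10a and Rpsa were called higher and Rpl10 was not called.

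Rpl36al had the largest change here as well, in the other direction. It stood at 6.63, 5.02, 6.19 and 3.24 CPM in untreated spleens and at 3.28, 3.10, 2.12 and 2.72 CPM with 2DG. The log2 change was -0.90 and its SE 0.27 (edgeR adjusted p = 0.0601). Only untreated replicate 8 fell within the treated range. Without that library, the one that made the groups overlap, the change was -1.09 (edgeR adjusted p = 0.0156). Without untreated replicate 5 or 7 or 2DG replicate 11 it was -0.78, -0.82 and -0.79 (edgeR adjusted p = 0.156, 0.11 and 0.164). The range of the adjusted p over all alternatives was 0.00848 to 0.164, and its lowest value came without replicates 6 and 8. Rpl26, a large-subunit protein that also binds p53 messenger RNA, came next with a log2 change of -0.36 (SE 0.22, edgeR adjusted p = 0.354). It stood at 3.44, 1.83, 3.05 and 1.75 CPM untreated and at 2.06, 2.09, 1.78 and 1.92 CPM with 2DG, on 35 to 74 counts per library. Untreated replicates 5 and 7 were above all treated libraries and replicate 8 below them, and with look-alike rows added the log2 change was 0.02. This comparison and the one with age share the untreated 10-week libraries, so a high value there enters both.

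Rps2, a small-subunit protein at the entry of the messenger channel, showed what replicate 5 can do. It stood at 220, 153, 148 and 160 CPM in untreated spleens and at 192, 192, 200 and 194 CPM with 2DG. The treated libraries lay above replicates 6, 7 and 8 and below replicate 5, and the log2 change was 0.20 with SE 0.10 (edgeR adjusted p = 0.269). Without replicate 5 Rps2 was called higher, 64 of 82 log2 changes were positive, the median was 0.06, 10 genes were higher at an unadjusted p under 0.05 and 8 were higher with no overlap (5.86% of all genes). Without replicate 7 only 22 were positive, with a median of -0.05.

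**Figure D3:**
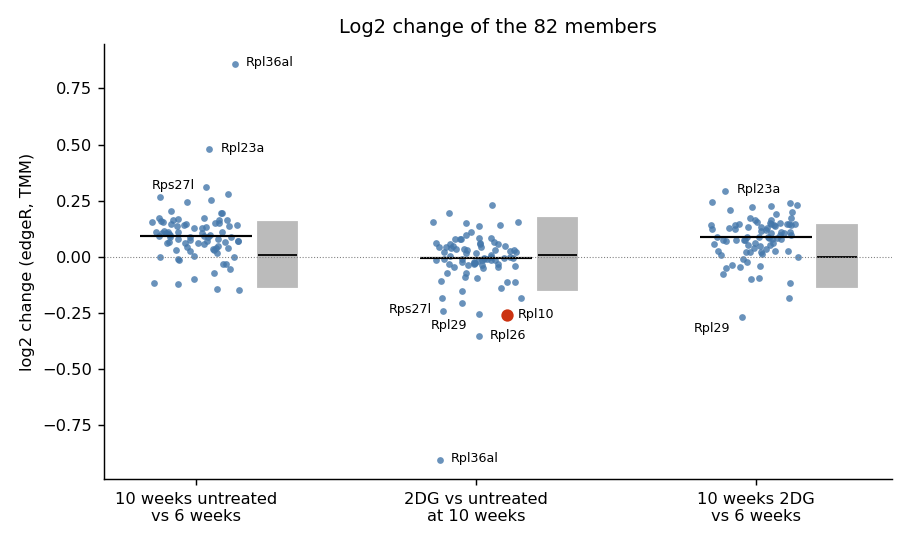
Each point is the fitted log2 change (edgeR with TMM factors) of 1 of the 82 ribosomal protein genes in 1 of the 3 comparisons, with a line at their median, and the grey box beside it spans the middle 50% of all 18542 genes with a line at their median. The medians of the ribosomal protein genes are 0.09, -0.005 and 0.09, and the larger red point is Rpl10, the 1 gene past the threshold.

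The third comparison set 2DG at 10 weeks against the younger, untreated spleens. No ribosomal protein gene passed (edgeR; background 0.129% of all genes, 0.0378% higher and 0.0917% lower), 17 were higher and 0 lower at an unadjusted p under 0.05 (8.75% and 8.14% of all genes), and 27 had higher values in all treated libraries than in any 6-week library, with 0 the other way (7.98% and 7.69%). The log2 change was positive for 69 of 82 against 49.5% of all genes, with a median of 0.09 beside -0.002. Small-subunit genes were positive in 29 of 33 and large-subunit genes in 40 of 49. DESeq2 called 3 genes higher (Rpl14, Rplp1 and Rpsa), edgeR with only the groups compared 7 and voom 9. The 6-week group takes part in this comparison and in the one with age.

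Rplp1 came nearest, at 533, 531, 542 and 517 CPM against 608, 588, 679 and 634 CPM (log2 change 0.24, SE 0.07, edgeR adjusted p = 0.105). Rpsa stood at 74.5, 76.3, 69.4 and 74.3 CPM against the 83.8 to 87.7 CPM of the treated group (log2 change 0.22, SE 0.06, edgeR adjusted p = 0.119). For both, the 4 treated libraries lay above all the younger ones. Rpl14, Rps19 and Rpl36a also had separate groups. Rps19, the gene most often mutated in human Diamond-Blackfan anaemia, stood at 149, 150, 147 and 148 CPM and at 164, 163, 173 and 177 CPM (log2 change 0.19, SE 0.06, edgeR adjusted p = 0.133). The lowest change was that of Rpl29, -0.27 on 26 to 52 counts per library (edgeR adjusted p = 0.583). With each library left out in turn, 64 to 74 of the 82 log2 changes were positive and 27 to 39 genes were higher with no overlap (7.98% to 12.8% of all genes, and 11.3% for the 39 without replicate 1), while the count at an unadjusted p under 0.05 ran from 7 without replicate 3 to 23 without replicate 5.

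**Figure D4:**
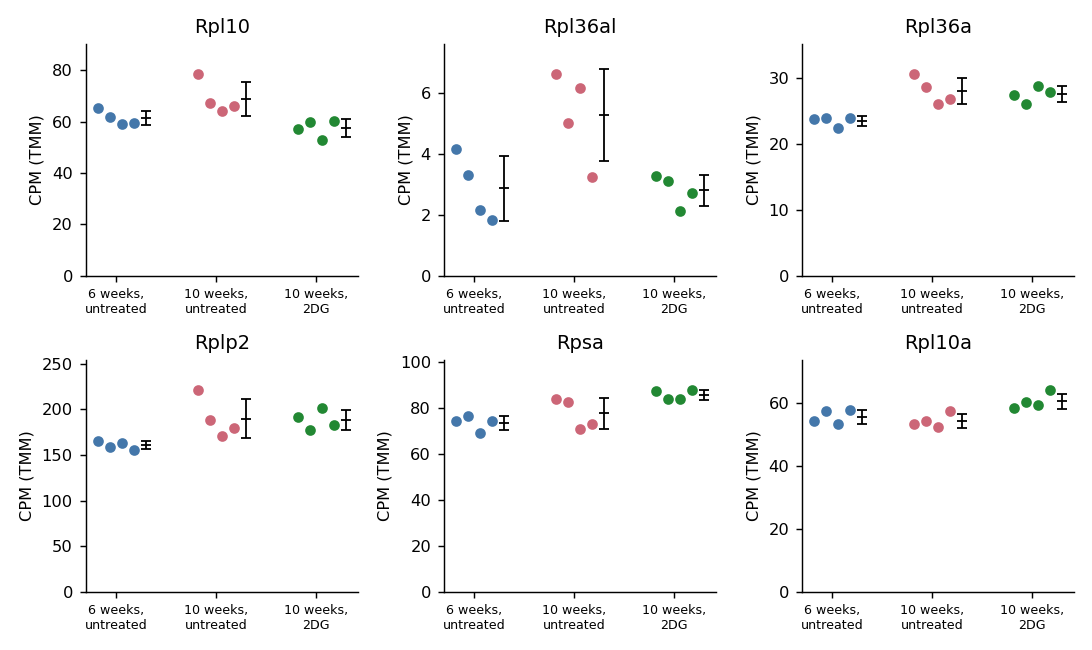
Normalised counts (CPM with TMM factors, each axis from 0) of 6 ribosomal protein genes, with a point per library in order of replicate number and a bar at the mean with 1 SD to each side (n = 4 per group). Rpl10 with 2DG (52.7 to 60.1 CPM) lies below the untreated 10-week libraries (64.0 to 78.5 CPM), Rpl36al is highest in untreated spleens at 10 weeks, Rpl36a and Rplp2 are lowest at 6 weeks, and Rpl10a and Rpsa have their highest mean with 2DG.

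Several of these genes come in pairs of paralogues. Rpl36a and Rpl36al are identical in 282 of 321 coding bases (87.9%). The first 150 bases are printed below with the 23 that differ in capitals, to show that reads from the 2 genes can be told apart over most of their length. The alignment does not cover the look-alike rows of either gene. The genes are at chrX:134585654-134588062 on the + strand and chr12:69182731-69184083 on the - strand.
Rpl36a: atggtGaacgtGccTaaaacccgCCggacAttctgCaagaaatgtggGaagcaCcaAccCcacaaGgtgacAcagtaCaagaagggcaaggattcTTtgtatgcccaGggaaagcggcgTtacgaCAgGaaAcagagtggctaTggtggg
Rpl36al: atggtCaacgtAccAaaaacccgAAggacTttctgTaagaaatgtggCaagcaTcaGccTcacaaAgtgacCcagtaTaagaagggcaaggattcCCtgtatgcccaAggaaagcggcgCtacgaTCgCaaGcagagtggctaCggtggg

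The values of the pair were described above: Rpl36a stood at 23.6, 28.1 and 27.6 CPM on average in the 3 groups and Rpl36al at 2.87, 5.27 and 2.81 CPM. Summed with its look-alike rows Rpl36al stood at 5.05 ± 1.10, 8.14 ± 2.72 and 4.88 ± 0.331 CPM (SD, n = 4 each), with log2 changes of 0.68 with age and -0.74 for 2DG at 10 weeks (edgeR adjusted p = 0.164 and 0.0610). Rpl36a summed in the same way stood at 108.9 ± 3.096, 134.9 ± 18.84 and 123.8 ± 3.765 CPM (SD, n = 4 each). Its log2 changes were then 0.31 with age and -0.12 for 2DG at 10 weeks (edgeR adjusted p = 0.1178 and 0.3965). Rpl22, which T cell development requires in mice, and its paralogue Rpl22l1 stood at 294 ± 10.0 and 49.7 ± 3.63 CPM at 6 weeks, 298 ± 25.4 and 54.9 ± 7.07 CPM in untreated spleens at 10 weeks, and 307 ± 8.67 and 53.7 ± 1.90 CPM with 2DG (SD, n = 4 each). Neither passed in any comparison. Rps27 stood at 26.7 ± 1.92, 28.1 ± 4.24 and 30.9 ± 3.07 CPM and Rps27l at 33.9 ± 5.25, 42.2 ± 6.90 and 35.7 ± 2.85 CPM (SD, n = 4 each). For 2DG against untreated spleens the log2 change was 0.14 for Rps27 and -0.24 for Rps27l, with edgeR adjusted p = 0.479 and 0.266. Rpl7 and Rpl7l1 also passed nowhere. The testis-enriched or muscle-enriched paralogues Rpl10l, Rpl39l and Rpl3l had at most 13 counts in a library.

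Some members have known duties apart from translation. Rpl5 and Rpl11, which together bind Mdm2 when ribosome assembly fails, stood at 56.7, 55.5 and 57.7 CPM and at 30.6, 31.9 and 32.5 CPM on average in the 3 groups. Their log2 changes lay between -0.03 and 0.09 in the 3 comparisons. Rps6, the protein phosphorylated by the kinases below mTORC1, stood at 19.8 ± 1.58, 21.3 ± 1.70 and 21.6 ± 1.30 CPM (SD, n = 4 each), with no change past the threshold. Rpl4, a lining of the protein tunnel and the row with the most counts of all, stood at 1370 ± 20.3, 1409 ± 97.0 and 1428 ± 43.2 CPM (SD, n = 4 each). Its largest log2 change was 0.06. Fau and Rps27a encode fusions of ubiquitin or a relative of it with a ribosomal protein. Fau stood at 18.83, 17.82, 18.03 and 18.23 CPM at 6 weeks, then 22.8, 20.7, 19.0 and 19.7 CPM untreated and 21.6, 18.4, 19.6 and 21.2 CPM with 2DG, and Rps27a had log2 changes of 0.07, -0.11 and -0.04. Neither passed. Rpl3, at the catalytic centre, the X-linked Rps4x and Rpl39, and Rps15a had log2 changes between -0.04 and 0.15.

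Genes that build ribosomes or work beside them gave few calls. None of 25 translation factors and related genes with TOP messages, 41 tested ribosome biogenesis genes and 78 tested mitochondrial ribosomal protein genes passed in any comparison. The TOP list had a median log2 change of 0.06 with age (22 of 25 positive), -0.05 for 2DG at 10 weeks (7 of 25) and 0.04 for 2DG against 6 weeks (17 of 25). The ribosome biogenesis list had medians of 0.00, -0.07 and -0.06 (22, 11 and 11 of 41 positive), and the mitochondrial ribosomal proteins of 0.04, 0.00 and 0.04 (49, 40 and 56 of 78). In the same order, the RNA polymerase I list had medians of -0.05, -0.015 and -0.026 (5, 7 and 6 of 15 positive). The mTORC1 and TOP regulator list had 0.055, -0.001 and 0.033 (13, 10 and 11 of 20). The nucleolar stress and p53 list had 0.147, -0.085 and 0.066 (8, 4 and 7 of 12). Over all genes tested the medians were 0.01, 0.01 and -0.002.

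For 2DG at 10 weeks 5 companion genes passed, where 7.42% of all genes tested did (2.16% higher and 5.26% lower). The 6 companion lists held 25, 41, 78, 15, 20 and 12 tested genes. Taf1c, a subunit of the selectivity factor of RNA polymerase I, was the 1 of 15 genes of that list to do so and was higher, 17.5 ± 1.30 against 21.4 ± 0.563 CPM (log2 change 0.28, SE 0.07, edgeR adjusted p = 0.0345). Larp4, an RNA-binding protein that protects poly(A) tails, was the 1 of 20 genes of the mTORC1 and TOP regulator list and fell, with 113 ± 5.07 CPM untreated and 91.4 ± 8.47 CPM treated (log2 change -0.31, SE 0.08, edgeR adjusted p = 0.0348). In the nucleolar stress and p53 list 3 of 12 fell. Cdkn1a, the cyclin-dependent kinase inhibitor p21, had 18.5 ± 4.87 CPM untreated and 11.4 ± 1.54 CPM treated (log2 change -0.70, SE 0.17, edgeR adjusted p = 0.0271). Mdm2, the ubiquitin ligase that restrains p53, went from 132 ± 14.1 to 108 ± 4.12 CPM and Zmat3, a p53 target that binds RNA, from 34.6 ± 1.56 to 28.9 ± 1.63 CPM (log2 changes -0.29 and -0.26, SE 0.07 each, edgeR adjusted p = 0.0274 and 0.0387). All of these means are over 4 libraries with SD. None of the 5 passed when only the compared groups were fitted, and with single libraries left out the number of companion genes called ran from 0 to 8, with 0 without 2DG replicate 10 or 11, 1 without untreated replicate 5 or 7, 2 without replicate 2 or 12, 3 without replicate 9 and 8 without replicate 8.

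Markers of some cell types also passed in the comparison of 2DG with no treatment at 10 weeks, where 2.16% of all genes tested were higher and 5.26% lower. Of 11 plasma cell markers 10 were lower with 2DG (edgeR, median log2 change -1.46), with a summed level of 3942 to 6994 CPM in untreated spleens at 10 weeks, 1768 to 2683 CPM with 2DG and 2306 to 4233 CPM at 6 weeks. Of 12 tested erythroid markers 1 was higher (summed 2694 to 19520, 12240 to 25650 and 6807 to 10060 CPM in the same order), of 10 monocyte and macrophage markers 2 were lower (3283 to 4889, 3522 to 3787 and 3411 to 3926 CPM), and of 6 megakaryocyte markers 1 was higher (217 to 357, 280 to 566 and 354 to 587 CPM). None of 10 mature B cell, 12 T cell, 9 neutrophil and 14 cell cycle genes passed there, nor any marker in the other comparisons. Some lists nevertheless shared a direction. All 14 cell cycle genes and all 12 erythroid markers had positive log2 changes in each comparison (cell cycle medians 0.17, 0.24 and 0.43). In the order of the comparisons, mature B cell markers were positive for 0, 10 and 1 of 10. T cell markers were positive for 6, 6 and 1 of 12 and neutrophil markers for 5, 2 and 0 of 9. Mature B cell markers summed to 3139 to 6238 CPM over all libraries and T cell markers to 729 to 1116 CPM. The part of these differences in the values of the ribosomal protein genes was not tested.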

How the data were processed

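Per the labels' protocols, the TruSeq RNA v2 kit, which selects poly(A) RNA and does not mark strand, was used on total RNA of spleens. The authors deposited whole-number counts per gene for 12 libraries, with totals from 15596040 to 26079979. The tools were Bowtie2 2.2.0 and RSEM 1.2.12, and the build GRCm38, per the submitters' processing notes. The sources used here do not say how counts became whole numbers. Of 53715 gene identifiers, 53620 matched a symbol of GENCODE M21, and 95 did not.

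The 18542 genes that passed filterByExpr were fitted with edgeR 4.0.16 in R 4.3.3 (TMM factors, robust glmQLFit and glmQLFTest, all 12 libraries in 3 groups) and p-values were adjusted by Benjamini-Hochberg over all of them, with a threshold of 0.05. SE is the size of the log2 change divided by the root of F. Deviations and SDs of log2 CPM used a pseudocount of 0.5. Coding sequences of pairs were aligned locally with Biopython. The fit was tested on simulated data. Alternatives were DESeq2 1.42.0, limma 3.58.1 voom, other scalings, filters and samples in the fit, each library left out, and the sum with look-alike rows, which was added after seeing the data.

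The members, the companion and marker lists and the comparisons were chosen with earlier results of these data known. Named genes were those past the threshold, the 5 largest changes in each direction per comparison, the 5 highest and 5 lowest levels per kb, the 5 most variable in untreated spleens at 10 weeks, and a fixed list of paralogues and proteins with other known duties; per companion list, up to 4 genes past the threshold. Some genes with look-alike rows, and those with separate groups, are also named, after their values were seen. Some items are not reported here.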

Additional observations from a re-analysis of the deposited data

Results flagged for a closer look

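Within each group of 4, the highest and the lowest library of 40 named ribosomal protein genes and of summary measures were compared with the nearest other library, and 9 of 126 groups had a library apart by Dixon's criterion. Chance gives about 1 in 20 such groups. In untreated spleens at 10 weeks replicate 5 stood apart for Rplp1, at 663 CPM against 566 to 580 CPM in the others, and for Rps2, at 220 CPM against 148 to 160 CPM. At 6 weeks replicate 1 was high for Rpl22 (309 CPM against 288 to 290 CPM). Replicate 3 was low for Rpl36a (22.4 CPM against 23.83 to 23.99 CPM), for Rpl23a (0.287 CPM against 0.430 to 0.443 CPM), which rests on 5 to 17 counts per library, and for the share of all counts in ribosomal protein rows (1.35%, Wilson interval 1.34% to 1.35%, against 1.39% to 1.40%). With 2DG replicate 12 was high for Rps25 (72.7 CPM against 62.3 to 62.8 CPM) and Rpl34 (22.5 CPM against 19.53 to 19.96 CPM), and replicate 11 was low for Rpl22l1 (50.9 CPM against 54.4 to 55.1 CPM).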

How the results depend on the processing

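With age, ribosomal protein genes called higher numbered 0 in the reported fit, 0 to 2 with single libraries left out (2 without replicate 8: Rpl36al and Rpl36a), 3 without replicates 6 and 8 (Rpl36al, Rps27l and Rpl41) and 1 with DESeq2. For 2DG at 10 weeks 1 was called lower in the reported fit; it was 0 to 2 with single libraries left out, 4 without replicates 6 and 8, 2 with DESeq2 and 0 with library totals, no filter, only the compared groups or voom. Those called higher were 2 with library totals and 0 to 1 with single libraries left out, the 1 being Rps2 without replicate 5. For 2DG against 6 weeks 7 were called higher with only the compared groups, 9 with voom and 3 with DESeq2. With library totals the median log2 change was -0.003 with age and 0.087 for 2DG at 10 weeks. Companion genes called with age were 1 with no filter, 0 to 5 with single libraries left out, 16 without replicates 6 and 8 and 2 with DESeq2. For 2DG at 10 weeks (5 as reported) they were 8 with library totals, 3 with no filter, 0 with the compared groups, 0 to 8 with single libraries left out, 18 without replicates 6 and 8 and 8 with DESeq2. For 2DG against 6 weeks they were 5 with the compared groups, 0 to 1 with single libraries left out, 2 without replicates 6 and 8, 8 with voom and 3 with DESeq2. The share of counts in the 3 groups was 1.55%, 1.56% and 1.67% with named pseudogenes, 1.92%, 1.94% and 2.07% with look-alike rows, and 1.44% and 1.52% for the untreated groups without immunoglobulin genes. Signs turned with look-alike rows for Rpl13a (0.15) and Rps13 (0.003) with age, Rpl26 (0.022) for 2DG at 10 weeks, and Rpl24 (0.091) and Rpl26 (0.10) for 2DG against 6 weeks. They also turned for Rpl13a without replicate 6 (-0.219 to 0.033 over single libraries left out) or 6 and 8 (0.09), Rpl28 without 6 and 8 (-0.004) and Rpl24 without replicate 11 (-0.239 to 0.007). The cause was not tested. No paired analysis was possible because replicate numbers run from 1 to 12 across the groups. Counts of 5 to 17 per library for Rpl23a, and of up to 52 for Rpl24 and Rpl29, limit those genes.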
